A study of Rattus norvegicus with 30 samples.

Results

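Transcript levels after 48 h of exposure to diisononyl phthalate (DINP) at 25 mM were compared with those of vehicle cultures of the same age, in primary rat hepatocytes on Affymetrix rat expression arrays. The comparison takes the 5 arrays labelled 25 mM and the 5 labelled vehicle at 48 h, 10 of the 30 arrays of the series. All 31042 probe sets other than the array's own controls were read, and the 18625 in the upper 60% of mean signal were tested, which together represent 10604 named genes. The other arrays hold vehicle, 25 mM and 100 mM cultures at 24 h and 100 mM cultures at 48 h, again 5 in each group. They share 1 fit with the 10 compared here, and are used for differences between times and between doses.

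The cells were frozen hepatocytes of male Sprague Dawley rats bought from a commercial supplier, plated on collagen under Matrigel and dosed on day 3 of culture. The control cultures received 1% DMSO, the solvent in which the compound was given. The doses, 25 and 100 mM, carry the unit of the labels, which nothing here could check. The 5 wells of a group are called independent cultures, but how many animals they came from is not stated in what was read here. A p-value below therefore speaks of the spread among wells. Values are signal intensities on a linear scale. Differences are on the log2 scale after adding 16 to each signal, with limma's standard error and its p adjusted over all tested probe sets, and a gene is called where that p is under 0.05.

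DINP is a plasticiser, a mixture of diesters of phthalic acid with branched alcohols, which cells split into monoesters and free alcohols. In rodent liver, phthalate monoesters are known ligands of the nuclear receptor PPAR-alpha. That receptor pairs with RXR on DNA at direct repeats of the letters AGGTCA spaced by 1 base, and controls genes that take up, activate, bind and oxidise fatty acids in mitochondria, peroxisomes and the endoplasmic reticulum. The hepatocyte in culture also lays down an actin cytoskeleton and matrix proteins that it hardly makes in the liver, and slowly loses some of its liver-specific enzymes.

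With DINP, 1037 genes were called higher (9.78% of those tested) and 1286 lower (12.1%), and 17.9% of all tested probe sets were called in either direction. Most of these differences were small. Among the 2323 called genes, the median size was 0.38 on the log2 scale and 1634 lay under 0.5. The large ones were mostly rises: 94 called genes were at least 2-fold higher and 44 at least 2-fold lower, and at 4-fold or more the numbers were 10 and 2. In 1442 genes (13.6%) the 5 DINP arrays did not overlap the 5 vehicle arrays, 665 of them higher and 777 lower, and 1337 of the 1442 were called. The median difference over all genes was -0.03.

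Genes of fatty acid handling led the rises. Acot1, a cytosolic thioesterase that releases free fatty acid from acyl-CoA, read 153, 44.7, 41.1, 85.5 and 100 on the vehicle arrays and 6531, 2937, 3914, 4273 and 4484 on the DINP arrays. Its vehicle mean lies below the dimmest mean tested, 7.956 on the log2 scale, and its rise was 5.53 ± 0.35 (adjusted p = 6.12e-14). The size of this rise is uncertain, since it rests on dim vehicle signals and depends partly on the constant of 16. Ehhadh, the peroxisomal enzyme that hydrates and dehydrogenates enoyl-CoA, read 2374, 1840, 2003, 2647 and 1906 in vehicle against 16234, 13316, 16151, 15288 and 14451 with DINP. The arrays lay far apart, and the rise was 2.81 ± 0.10 or 7.01-fold (adjusted p = 1.23e-19). Cyp4a1, which hydroxylates the far end of a fatty acid, read 18099, 12132, 12675, 11305 and 10466 in vehicle and 75839, 61507, 76073, 66054 and 83234 with DINP, a rise of 2.50 ± 0.11 (adjusted p = 1.01e-17). Vehicle replicate 1 was the highest vehicle array for Cyp4a1.

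Acsl1, which joins fatty acids to coenzyme A, read 9948, 7352, 8114, 10414 and 7843 in vehicle and 38492, 31894, 40106, 37588 and 35230 with DINP, a rise of 2.08 ± 0.09 or 4.22-fold. Its dimmer probe set gave 2.47. Fabp1, the main fatty acid carrier of the hepatocyte's cytosol, read 7415, 6774, 6909, 6604 and 5934 against 27486, 23771, 27814, 31770 and 30360, a rise of 2.06 ± 0.08 (adjusted p = 1.73e-19). Pdk4, a kinase that switches off pyruvate dehydrogenase and so spares glucose, read 4520, 3692, 3739, 5276 and 3740 against 20300, 17759, 18433, 17389 and 12524, a rise of 2.04 ± 0.11. The dimmer probe set of Pdk4 rose by 0.90. The largest rises and falls were picked among called genes whose DINP and vehicle arrays do not overlap. The lack of overlap in them is therefore no separate result.

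Other large rises belonged to the same chemistry. Hacl1, which cleaves 2-hydroxy acids and helps shorten branched fatty acids in peroxisomes, read 7610, 6164, 6560, 6546 and 5534 in vehicle and 25850, 20975, 24725, 26856 and 24908 with DINP (1.93 ± 0.07). Cyp4a3, another fatty acid hydroxylase, rose by 1.83 ± 0.11. Probes for the Cyp4a genes, and for the Acot genes, can bind transcripts of their close relatives, so the split between such relatives is uncertain. Cpt1b, the form of the outer mitochondrial carnitine transferase typical of muscle, read 1351, 1056, 1094, 1036 and 731 against 4122, 3522, 3730, 3670 and 2588, a rise of 1.74 ± 0.14. Fabp3, the fatty acid carrier typical of heart, read 88.3, 239, 88.7, 81.0 and 92.8 in vehicle and 553, 592, 666, 543 and 562 with DINP. Its vehicle mean was below the dimmest mean tested, and its rise was 2.27 ± 0.45 (adjusted p = 3.35e-04), uncertain in size like that of Acot1. Vehicle replicate 2 of Fabp3 stood well above the other 4 vehicle arrays.

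**Figure D1:**
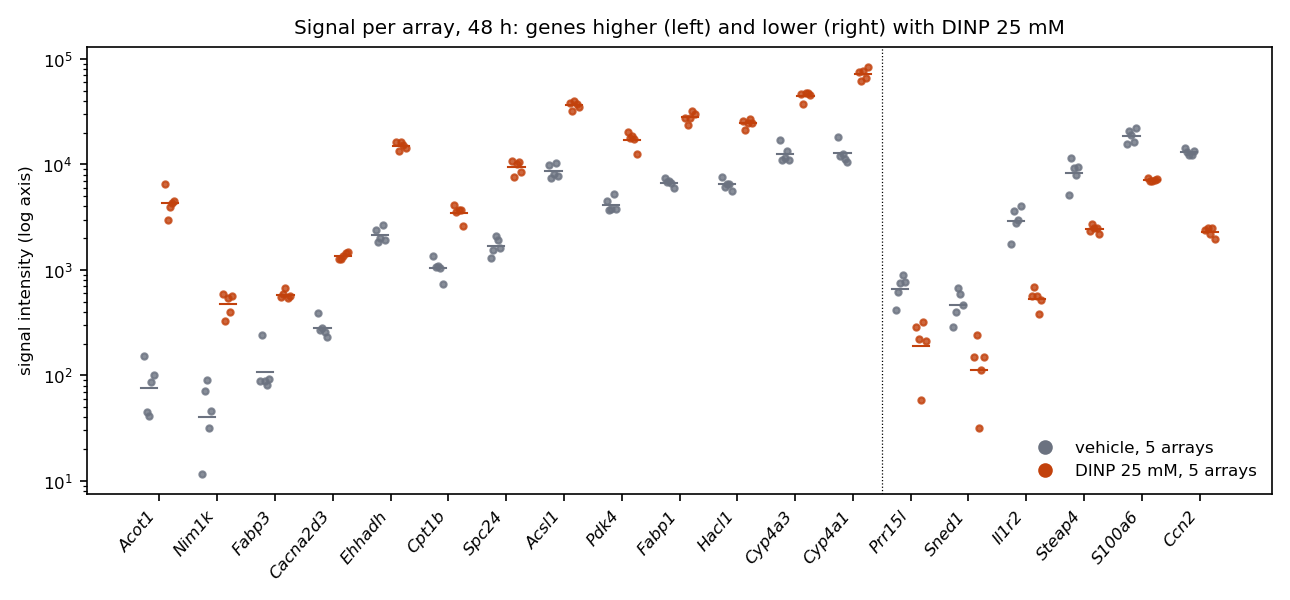
Signal intensity per array at 48 h, on a log axis, for 13 genes that rose with DINP 25 mM (left of the dotted line) and 6 that fell. Each point is 1 array, grey for vehicle and orange for DINP, 5 a group, shifted sideways only so that they can be told apart, and the bar is the geometric mean. The genes were picked among those whose arrays do not overlap, so the 2 clouds are separate by choice. The vehicle points of Acot1, Nim1k and Fabp3 lie near the bottom of the scale.

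The genes that bring a fatty acid into the cell and into mitochondria rose in part. Of 17 tested genes of uptake and activation, 7 rose and 2 fell. Acsm3, an acyl-CoA synthetase for medium chains, rose by 1.50 ± 0.16 and Slc27a2, a very long chain acyl-CoA synthetase of peroxisomes and endoplasmic reticulum, by 0.56 ± 0.05, while Acsl4, which prefers arachidonic acid, fell by 0.57 ± 0.09. The fatty acid translocase Cd36 was not called at 48 h (0.38 ± 0.14, adjusted p = 0.0664). Among 11 genes of binding proteins, 6 rose, with Fabp2 at 0.55 ± 0.14 and the sterol carrier Scp2 at 0.44 ± 0.05. Of the same 11 genes, 2 fell, among them Fabp5 at -0.44 ± 0.08. The carnitine shuttle, which moves acyl groups across the inner mitochondrial membrane, had 6 of 8 tested members higher and 0 lower. Cpt1a, its liver entry enzyme, read 4159, 2048, 2485, 2995 and 1819 in vehicle and 7489, 5111, 6477, 5588 and 5485 with DINP and rose by 1.20 ± 0.14, and its dimmer probe set rose by 0.55. The carrier Slc25a20 rose by 1.01 ± 0.05, the carnitine importer Slc22a5 by 0.92 ± 0.10 and Cpt2 by 0.65 ± 0.08.

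Mitochondrial beta-oxidation had 15 of 19 tested members higher and 1 lower, with a median of 0.55. Acaa2, the thiolase of the cycle's last step, read 51136, 41288, 36608, 42202 and 40206 in vehicle and 102923, 95383, 96739, 102834 and 91757 with DINP, a rise of 1.22 ± 0.06. The first-step dehydrogenases Acadm, for medium chains, and Acadvl, for very long chains, rose by 1.13 ± 0.08 and 0.83 ± 0.05. Eci1, which handles double bonds, rose by 1.04 ± 0.06, and Hadha, the alpha subunit of the trifunctional protein, by 0.89 ± 0.06. The member that fell, Acadsb, acts on branched short chains from isoleucine. It was dim with DINP, its arrays overlapped, and the fall was -0.95 ± 0.33 (adjusted p = 0.0395). It lost its call without a filter on low signal.

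The ketone body genes split. Acat1, which joins acetyl-CoA units, rose by 1.07 ± 0.08 and Bdh1, which reduces acetoacetate to hydroxybutyrate, by 1.00 ± 0.10, while Oxct1, which uses ketone bodies and is normally low in hepatocytes, fell by 0.81 ± 0.21, a difference of -0.53 without DINP replicate 1. In all, 3 of 8 tested members rose and 1 fell. The hormone Fgf21, often measured beside these genes, was not called at 48 h (0.04 ± 0.20, adjusted p = 0.938). Its vehicle arrays read 3256, 1105, 1172, 1018 and 902, replicate 1 standing apart, and its DINP arrays 1326, 1099, 1361, 1149 and 1952. Without that replicate the difference was 0.36 and only just missed a call (adjusted p = 0.05002, limma), so the result for Fgf21 hangs on 1 array.

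In the peroxisome, 15 of 17 tested genes of beta-oxidation rose (88.2%) and 0 fell, with a median of 0.88. Ech1, which repositions double bonds, read 25337, 21408, 22610, 23222 and 21194 against 65093, 58740, 58019, 62709 and 55821, a rise of 1.40 ± 0.07. Crat, which loads short acyl groups on carnitine for export, rose by 1.38 ± 0.15, and the reductase Decr2 by 1.08 ± 0.04. Of 17 genes that build peroxisomes, 10 rose and 1 fell. Pex11a, whose product elongates and divides peroxisomes, led them, with 12072, 12081, 12334, 12905 and 13812 in vehicle and 23447, 21544, 22106, 24077 and 23946 with DINP (0.86 ± 0.07), followed by the membrane protein importer Pex16 at 0.75 ± 0.08. The dimmer probe set of Pex16 was not called (-0.05). The peroxide-removing enzymes moved much less. Cat, the catalase of peroxisomes, rose by 0.24 ± 0.09 (adjusted p = 0.0462) with overlapping arrays, and 6 of 16 members of that group rose under the deposited scaling, but 3 under quantile normalisation and 2 when each array was centred on its median.

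Of the acyl-CoA thioesterases, 8 of 10 tested members rose, with a median of 1.07. Their products sit in different places. The peroxisomal Acot4 read 5055, 3173, 3112, 3445 and 2375 in vehicle and 11576, 8886, 11529, 10991 and 12038 with DINP (1.71 ± 0.12), and the peroxisomal Acot8 rose by 1.30 ± 0.09. The mitochondrial Acot2 rose by 1.32 ± 0.08 and the cytosolic Acot7 by 1.11 ± 0.09, while the mitochondrial Acot9 fell by 0.27 ± 0.06. Genes of coenzyme A and NAD synthesis and turnover also rose, 9 of 21, and 0 fell. Pank1, the first and rate-setting step of coenzyme A synthesis, read 12044, 11465, 12370, 13555 and 11903 against 31338, 27851, 30241, 30127 and 30157, a rise of 1.29 ± 0.05 (adjusted p = 1.73e-19). Vnn1, which recycles the vitamin part of coenzyme A, rose by 1.09 ± 0.07, and Nudt7, which breaks coenzyme A down in peroxisomes, by 0.99 ± 0.06.

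Lipid storage and its release rose together with oxidation, while synthesis from citrate fell. Among lipid droplet and lipolysis genes, 14 of 23 rose and 1 fell. Hilpda, which restrains the lipase Pnpla2 on droplets, read 3219, 4189, 3704, 4344 and 4465 against 11662, 10739, 10279, 11109 and 8913 (1.40 ± 0.11). The droplet coat proteins Plin5 and Plin2 rose by 0.91 ± 0.12 and 0.58 ± 0.06, and the monoacylglycerol lipase Mgll by 1.00 ± 0.09. Angptl4, a secreted inhibitor of lipoprotein lipase, read 10408, 6954, 8499, 8028 and 6870 in vehicle and 24550, 20989, 22020, 21833 and 21450 with DINP, a rise of 1.46 ± 0.09. Of 11 genes of fatty acid synthesis, 7 fell and 1, Me1, rose. Acaca, the carboxylase that makes malonyl-CoA, read 7087, 6169, 6246, 6929 and 7165 in vehicle and 4196, 4640, 4097, 3705 and 3147 with DINP and fell by 0.77 ± 0.08. Acly, which makes cytosolic acetyl-CoA from citrate, fell by 0.73 ± 0.10, and the synthase Fasn by 0.36 ± 0.12 with overlapping arrays (adjusted p = 0.0278), a call lost without vehicle replicate 1 (-0.17, adjusted p = 0.106). The dimmer probe sets of Acaca (-0.097) and Fasn (-0.10) were not called. The count of 7 falling genes was 4 without vehicle replicate 1 and 4 without DINP replicate 4. Scd, the desaturase that makes oleic acid, rose by 0.37 ± 0.06.

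The glycerol side of triglyceride rose. Gpd1, which makes glycerol 3-phosphate in the cytosol, rose by 1.19 ± 0.09, its mitochondrial partner Gpd2 by 1.34 ± 0.11, and glycerol kinase (Gk) by 0.91 ± 0.11. Aqp7, a glycerol channel, read 2537, 2823, 2609, 2837 and 2795 in vehicle and 6105, 6365, 7104, 7091 and 6327 with DINP and rose by 1.27 ± 0.07, whereas Aqp9, the usual glycerol channel of hepatocytes, fell by 0.51 ± 0.15 with overlapping arrays. Of 24 tested genes of triglyceride and phospholipid synthesis, 13 rose and 3 fell. Dgat1, which adds the last acyl chain, rose by 1.00 ± 0.07, Pemt, which makes phosphatidylcholine by methylation, by 1.18 ± 0.16, and Lpin1, a phosphatidate phosphatase, fell by 0.77 ± 0.08.

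**Figure D2:**
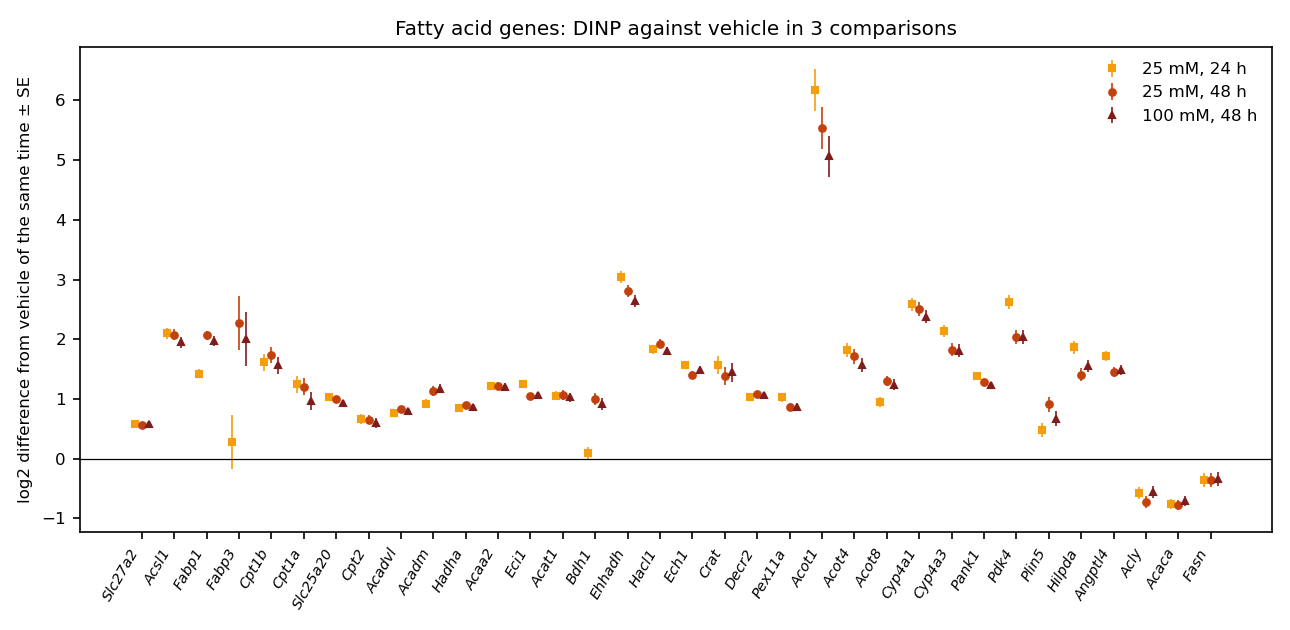
Log2 difference from the vehicle of the same time, with limma's standard error as the bar, for 34 genes of fatty acid handling at 25 mM for 24 h (squares), 25 mM for 48 h (circles) and 100 mM for 48 h (triangles), 5 arrays a group. The 2 comparisons at 48 h share their vehicle arrays. At 25 mM, Fabp1 and Bdh1 sit higher at 48 than at 24 h, and Acly, Acaca and Fasn lie below 0 in each comparison.

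The start regions of these genes were read for the letters of the direct repeat named above. RefSeq's 300 bases around each gene's start (build GRCr8, 250 before and 50 from the start on) were searched on both strands for AGGTCA, 1 base of any kind, and AGGTCA again, with at most 2 mismatches in the 12 fixed positions. Such a match stood in 3.71% of all 27457 promoters and in 2.87% of the 8860 that belong to tested genes. It stood in 6.18% of the 874 promoters of genes called higher, in 12% of the 75 of genes at least 2-fold higher, and in 1.86% of the 1077 of genes called lower. Of the 79 promoters of genes called higher in the fatty acid lists, 11 held it. These shares are a description with no test. A match is no proof of a site, and no match says only that these letters are not in this window.

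The matches with 1 mismatch in genes of fatty acid handling are shown with 20 bases on each side, in the direction of the gene, with the 13 letters of the match in capitals. Fabp1 (chr4:104749090-104749389, plus strand) holds it from 77 bases before its start, Acot4 (chr6:109399604-109399903, plus strand) from 13 before, Acot8 (chr3:173962139-173962438, minus strand) from 22 before, Acot12 (chr2:24721709-24722008, plus strand) from 105 before, and Acadvl (chr10:55236656-55236955, minus strand) from 17 before. The match reads on the opposite strand in Fabp1, Acot4 and Acot12, and on the strand of the gene in Acot8 and Acadvl.
Fabp1: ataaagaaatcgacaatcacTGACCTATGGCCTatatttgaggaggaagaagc
Acot4: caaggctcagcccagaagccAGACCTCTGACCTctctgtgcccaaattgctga
Acot8: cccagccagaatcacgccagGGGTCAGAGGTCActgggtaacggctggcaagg
Acot12: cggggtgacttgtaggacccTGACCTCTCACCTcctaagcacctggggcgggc
Acadvl: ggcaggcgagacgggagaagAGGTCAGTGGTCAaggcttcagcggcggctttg
Nim1k, described next, has a match with 2 mismatches from 110 bases before its start (chr2:53451199-53451498, minus strand), also on the opposite strand.
Nim1k: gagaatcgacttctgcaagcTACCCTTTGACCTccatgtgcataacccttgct

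Several of the 15 largest rises lie outside fatty acid metabolism. Nim1k, a protein kinase related to AMPK, read 11.7, 71.0, 89.7, 31.7 and 45.7 in vehicle and 591, 329, 538, 402 and 563 with DINP. Its vehicle mean was below the dimmest mean tested, and its rise was 3.04 ± 0.30 (adjusted p = 2.08e-09), uncertain in size like that of Acot1. Spc24, a part of the Ndc80 complex that holds chromosomes to the spindle, read 1305, 1554, 2078, 1930 and 1605 against 10656, 7596, 10069, 10647 and 8405, a rise of 2.48 ± 0.11 or 5.57-fold. The rest of the cell cycle list did not follow Spc24 in size: 7 of 36 tested members rose and 2 fell, the next largest rise being Mcm10 at 0.72 ± 0.23. Without vehicle replicate 1, or without DINP replicate 3, 4 of the list rose. The cyclin Ccnd1 rose by 0.44 ± 0.13 (adjusted p = 0.0174). Cacna2d3, an accessory subunit of calcium channels, read 391, 269, 278, 259 and 230 against 1278, 1264, 1339, 1459 and 1471 (2.21 ± 0.17). Acp3, an acid phosphatase, read 633, 934, 802, 842 and 703 against 3190, 1834, 3183, 2353 and 3141 (1.77 ± 0.13). C2h4orf46, a dim gene with a mean of 8.11 on the log2 scale over all arrays, rose by 1.82 ± 0.39.

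Carbohydrate genes moved in both directions. Pck1, which starts glucose synthesis from oxaloacetate, read 2241, 1920, 1535, 2058 and 2614 in vehicle and 4442, 3838, 3027, 3761 and 3256 with DINP and rose by 0.83 ± 0.13, and Fbp1 and Pc, 2 other enzymes of that route, rose by 0.80 ± 0.06 and 0.70 ± 0.09. Pfkfb3, whose product drives glycolysis, fell by 1.29 ± 0.20, from 604, 1390, 1473, 1169 and 1507 in vehicle to 510, 660, 500, 362 and 370 with DINP, where vehicle replicate 1 lay within the DINP range. Of 29 tested members, 9 rose and 5 fell. The number that rose was 5 under quantile normalisation and 4 with median centring.

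Respiratory chain genes rose by small amounts. Complex I, which takes electrons from NADH, had 27 of 34 tested subunits and factors higher (79.4%) and 0 lower, with a median of 0.27, and the number was 25 under both other scalings. Ndufb8 rose by 0.50 ± 0.12, Ndufv3 by 0.47 ± 0.06 and Ndufs7 by 0.45 ± 0.06. Complexes III and IV with cytochrome c had 14 of 23 higher and ATP synthase 10 of 16. Those counts leaned on the scaling: with quantile normalisation they were 8 and 6, and with median centring 6 and 5. Uqcr10 rose by 0.38 ± 0.08 and Atp5po by 0.33 ± 0.05. Of 73 tested genes of mitochondrial ribosomal proteins, 15 rose, 8 with median centring and 23 without vehicle replicate 1.

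Amino acid breakdown had 23 of 45 tested genes higher and 5 lower. Uroc1, of histidine breakdown, rose by 1.11 ± 0.10, Hgd, of tyrosine breakdown, by 0.91 ± 0.09, and Aass, which opens lysine breakdown, by 0.85 ± 0.09. Tat, the tyrosine aminotransferase long used as a glucocorticoid-responsive liver gene, read 26535, 25399, 22314, 26536 and 24655 in vehicle and 12395, 12789, 15528, 13708 and 17160 with DINP and fell by 0.82 ± 0.09. Tryptophan breakdown was divided within 1 pathway: its first enzyme Tdo2 fell by 0.67 ± 0.07, and the middle enzymes Kyat3, Haao and Kynu rose by 0.76 ± 0.06, 0.62 ± 0.11 and 0.35 ± 0.06. Acmsd, which sends the pathway towards oxidation and away from NAD, read 1746, 1701, 1878, 1884 and 1695 in vehicle and 977, 699, 623, 894 and 631 with DINP and fell by 1.22 ± 0.17 (adjusted p = 1.43e-06). Heme synthesis had 6 of 12 members higher, among them Alad at 0.71 ± 0.09 and Alas1, the first step, at 0.39 ± 0.11, and 3 higher in a fit of the compared groups alone.

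Among drug-metabolising enzymes the largest rise was that of Cyp3a2, which read 2491, 1976, 2150, 2105 and 1602 in vehicle and 6572, 4906, 6553, 6858 and 8004 with DINP (1.66 ± 0.14, adjusted p = 6.73e-11). Cyp3a18 rose by 0.54 ± 0.10 and the xenobiotic receptor Nr1i2 (PXR) by 0.41 ± 0.07. Of the CAR-responsive list, 6 of 10 tested members rose and 1 fell, with Gstt3 at 1.14 ± 0.10 and the retinal dehydrogenase Aldh1a1 at 1.05 ± 0.07. Cyp2c11, the chief male-specific P450 of rat liver, went the other way, from 24682, 18472, 17620, 19201 and 19782 in vehicle to 7293, 9845, 7834, 9362 and 11900 with DINP, a fall of 1.12 ± 0.13. The Cyp2 list otherwise held 4 rises, led by Cyp2d3 at 0.86 ± 0.11. Of the tested targets of the aryl hydrocarbon receptor, 0 of 5 were called by limma, and Cyp1a1 stood at -0.11 ± 0.11 (adjusted p = 0.585). Cyp1a1 read 26683, 52412, 50112, 56522 and 58322 in vehicle, with replicate 1 well below the rest, and 45512, 40456, 44582, 44111 and 43563 with DINP. Without that replicate the other 4 vehicle arrays lay above all 5 DINP arrays, and Cyp1a1 was called lower, at -0.31 (adjusted p = 1.75e-05, limma). The sulfotransferase Sult1c3 rose by 1.49 ± 0.12.

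Bile acid and sterol genes also divided. Cyp8b1, which makes the 12-hydroxylated bile acids, read 13142, 14159, 14611, 17417 and 15938 in vehicle and 31834, 25670, 32470, 28559 and 25940 with DINP and rose by 0.94 ± 0.08, while Cyp7a1, which sets the rate of the whole pathway, fell by 0.52 ± 0.17 with overlapping arrays (adjusted p = 0.034). The bile acid receptor Nr1h4 (FXR) rose by 0.71 ± 0.09. At the canalicular membrane, Abcc2, which exports conjugated bilirubin, read 32703, 26037, 25943, 30200 and 27601 in vehicle and 16451, 15166, 14108, 14161 and 16303 with DINP and fell by 0.90 ± 0.07, and the phospholipid exporter Abcb4 by 0.55 ± 0.10. At the blood side, the uptake carriers Slco1b2 and Slc10a1 rose by 0.57 ± 0.13 and 0.52 ± 0.10 with overlapping arrays. The dimmer probe set of Slco1b2 was not called (-0.02). The sterol exporter Abcg5 rose by 1.10 ± 0.13 and Abca1 fell by 0.68 ± 0.11. Of 22 genes of cholesterol synthesis and uptake, 8 fell, led by Sqle at -0.81 ± 0.11, and 2 rose. The number that fell was 5 with median centring, and 5 also without any one of vehicle replicates 1 and 5 and DINP replicate 4.

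Among the falls, Ccn2 stood first. Ccn2, a secreted matrix protein also called connective tissue growth factor and a standard target of TEAD factors with YAP and TAZ, read 14292, 13002, 12148, 12162 and 13347 in vehicle and 2409, 2517, 2175, 2485 and 1982 with DINP. Both groups were tight, and the fall was 2.48 ± 0.10 or 5.6-fold (adjusted p = 2.15e-19). Its RefSeq promoter (build GRCr8, chr1:22624565-22624864, minus strand) is shown in the direction of the gene because it holds 3 copies, in capitals, of GGAATG, the reverse complement of the TEAD letters CATTCC. At least 3 copies on either strand stand in 27 of the 27457 promoters (0.0983%). At least 1 stands in 13.9% of all promoters and in 11.3% of those of tested genes. The share was 10.8% for genes called lower, 16.7% (6 of 36) for genes at least 2-fold lower, and 13.4% for genes called higher, again a description with no test.
Ccn2: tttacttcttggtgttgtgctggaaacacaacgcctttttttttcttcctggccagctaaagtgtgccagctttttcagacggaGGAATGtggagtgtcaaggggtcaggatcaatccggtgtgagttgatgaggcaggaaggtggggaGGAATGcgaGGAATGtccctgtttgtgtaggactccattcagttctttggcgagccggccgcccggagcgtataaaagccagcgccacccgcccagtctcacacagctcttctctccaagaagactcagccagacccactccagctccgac
Of the tested members of the YAP and TAZ list, Ccn2 included, 3 of 17 fell (17.6%, against 12.1% of all tested genes) and 0 rose. So few members say little about the list as a whole. Ccn1 was the second at -0.70 ± 0.21, and the median vehicle level of that list was 9.63 on the log2 scale.

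The next largest fall was that of Il1r2, a decoy receptor that binds interleukin-1 without signalling. It read 1763, 3601, 2762, 2946 and 4073 in vehicle and 560, 691, 565, 378 and 513 with DINP, a fall of 2.42 ± 0.20 (adjusted p = 2.62e-11). Steap4, a plasma membrane and endosome reductase of iron and copper, read 5168, 11405, 9227, 7976 and 9494 against 2334, 2723, 2472, 2469 and 2211, a fall of 1.77 ± 0.13. In both genes vehicle replicate 1 was the lowest of its group, and lay above every DINP array as the choice of these genes requires. S100a6, a small calcium-binding protein, read 15716, 20791, 19177, 16291 and 22193 against 7371, 6992, 6885, 7134 and 7338, a fall of 1.38 ± 0.11. Abhd2, a lipid hydrolase, fell by 1.37 ± 0.11, and the glycosyltransferases B4galt5 and B3galnt1 by 1.29 ± 0.13 and 1.23 ± 0.08. The dimmer probe set of B4galt5 was not called (-0.17). Ampd3, an AMP deaminase, fell by 1.24 ± 0.17 and Popdc2, a membrane protein of muscle, by 1.49 ± 0.25. Sned1 (1.84 ± 0.39), Prr15l (1.69 ± 0.46), Pmepa1 (1.46 ± 0.43), Tcaf1 (1.41 ± 0.36), Sipa1l1 (1.40 ± 0.47) and Mid2 (1.39 ± 0.44) complete the 15 largest falls. With DINP, the means of these 6 lie below the dimmest mean tested. Signals this dim are uncertain and the genes were chosen for large falls, so these sizes are imprecise and may be too large. Pmepa1 lost its call without DINP replicate 5 (-0.79, adjusted p = 0.0565).

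The cytoskeleton fell across several of its parts. Of 33 tested genes of actin and its factor SRF, 16 fell (48.5%) and 2 rose. Tpm4, a tropomyosin along actin filaments, read 11882, 14488, 12707, 13678 and 14861 in vehicle and 7169, 7751, 8225, 8653 and 7434 with DINP (-0.78 ± 0.08). The crosslinker Flna fell by 0.79 ± 0.15 and Cnn3, a calponin, by 0.64 ± 0.09. Vim, the intermediate filament that hepatocytes gain in culture, read 9821, 15796, 13591, 14512 and 17834 against 7300, 7553, 6210, 6330 and 5820, a fall of 1.09 ± 0.11, and the tubulin Tubb5 fell by 0.54 ± 0.07. Of tubulins and keratins, 5 of 12 fell and 0 rose, and 8 fell under quantile normalisation. Among matrix and TGF-beta genes, 6 of 26 fell and 0 rose. Fn1, fibronectin, read 46770, 46439, 45918, 59906 and 57786 in vehicle and 26728, 27390, 27226, 25144 and 18594 with DINP, a fall of 1.04 ± 0.09, and Lamc1, a laminin chain, fell by 0.95 ± 0.16.

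In 4 of 5 stress lists more members fell than rose, as they did over all tested genes (12.1% lower, 9.78% higher). In these 4 lists the share lower ran from 20% to 37.0%. In the ATF4 list, which covers the amino acid and integrated stress response, 10 of 27 fell and 2 rose, with the cystine importer Slc7a11 at -0.82 ± 0.11 and Nupr1 at -0.66 ± 0.06. Of the endoplasmic reticulum chaperone genes, 7 of 26 fell, led by Hsp90b1 at -0.63 ± 0.07 (4 fell with median centring), and 3 rose. Among p53 targets, 6 of 18 fell, with Sesn1 at -0.84 ± 0.11 and Ccng1 at -0.60 ± 0.08, and 2 rose. The heat shock genes had 4 of 20 lower, led by Dnajb4 at -0.97 ± 0.10. NRF2 targets went both ways, 5 up and 4 down of 20.

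Secreted and immune genes shifted modestly. Of 27 genes of acute phase proteins, 8 fell and 3 rose, and under quantile normalisation 14 fell. A2m, the large protease inhibitor that marks inflammation in the rat, fell by 0.72 ± 0.08, and Lbp, which presents bacterial lipopolysaccharide, by 0.70 ± 0.11. In the interleukin-1 and NF-kB list, 6 of 20 fell, among them Tnfaip3 at -0.65 ± 0.10, and Cxcl12 rose by 0.73 ± 0.14. Of interferon-stimulated genes, 5 of 21 fell, 3 with median centring and 2 without DINP replicate 4, the lowest count when 1 array was left out. Apolipoproteins and lipoprotein assembly had 9 of 22 higher. Mttp, which loads lipid on apolipoprotein B, rose by 0.58 ± 0.06, and Apoa5, which promotes triglyceride clearance, read 18439, 20874, 19410, 19924 and 23149 in vehicle and 11845, 13428, 13129, 12851 and 12010 with DINP and fell by 0.68 ± 0.06.

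Among regulators, Creb3l3, a membrane-bound liver transcription factor of lipid genes, had the largest rise. It read 8649, 8993, 9467, 10736 and 10972 in vehicle and 28219, 22386, 26673, 22221 and 22242 with DINP, a rise of 1.32 ± 0.07. Rxrg, one of the RXR partners, rose by 0.78 ± 0.10 and Cebpa by 0.70 ± 0.09. The dimmer probe set of Rxrg was not called (0.05), and those of Cebpa gave 0.25 to 0.53, not all of them called. Ppargc1a, a coactivator of PPARs, fell by 0.72 ± 0.13 and Onecut1 by 0.72 ± 0.22. Of 27 nuclear receptors and coregulators, 6 rose and 4 fell, and of 22 liver transcription factors, 5 and 1.

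**Figure D3:**
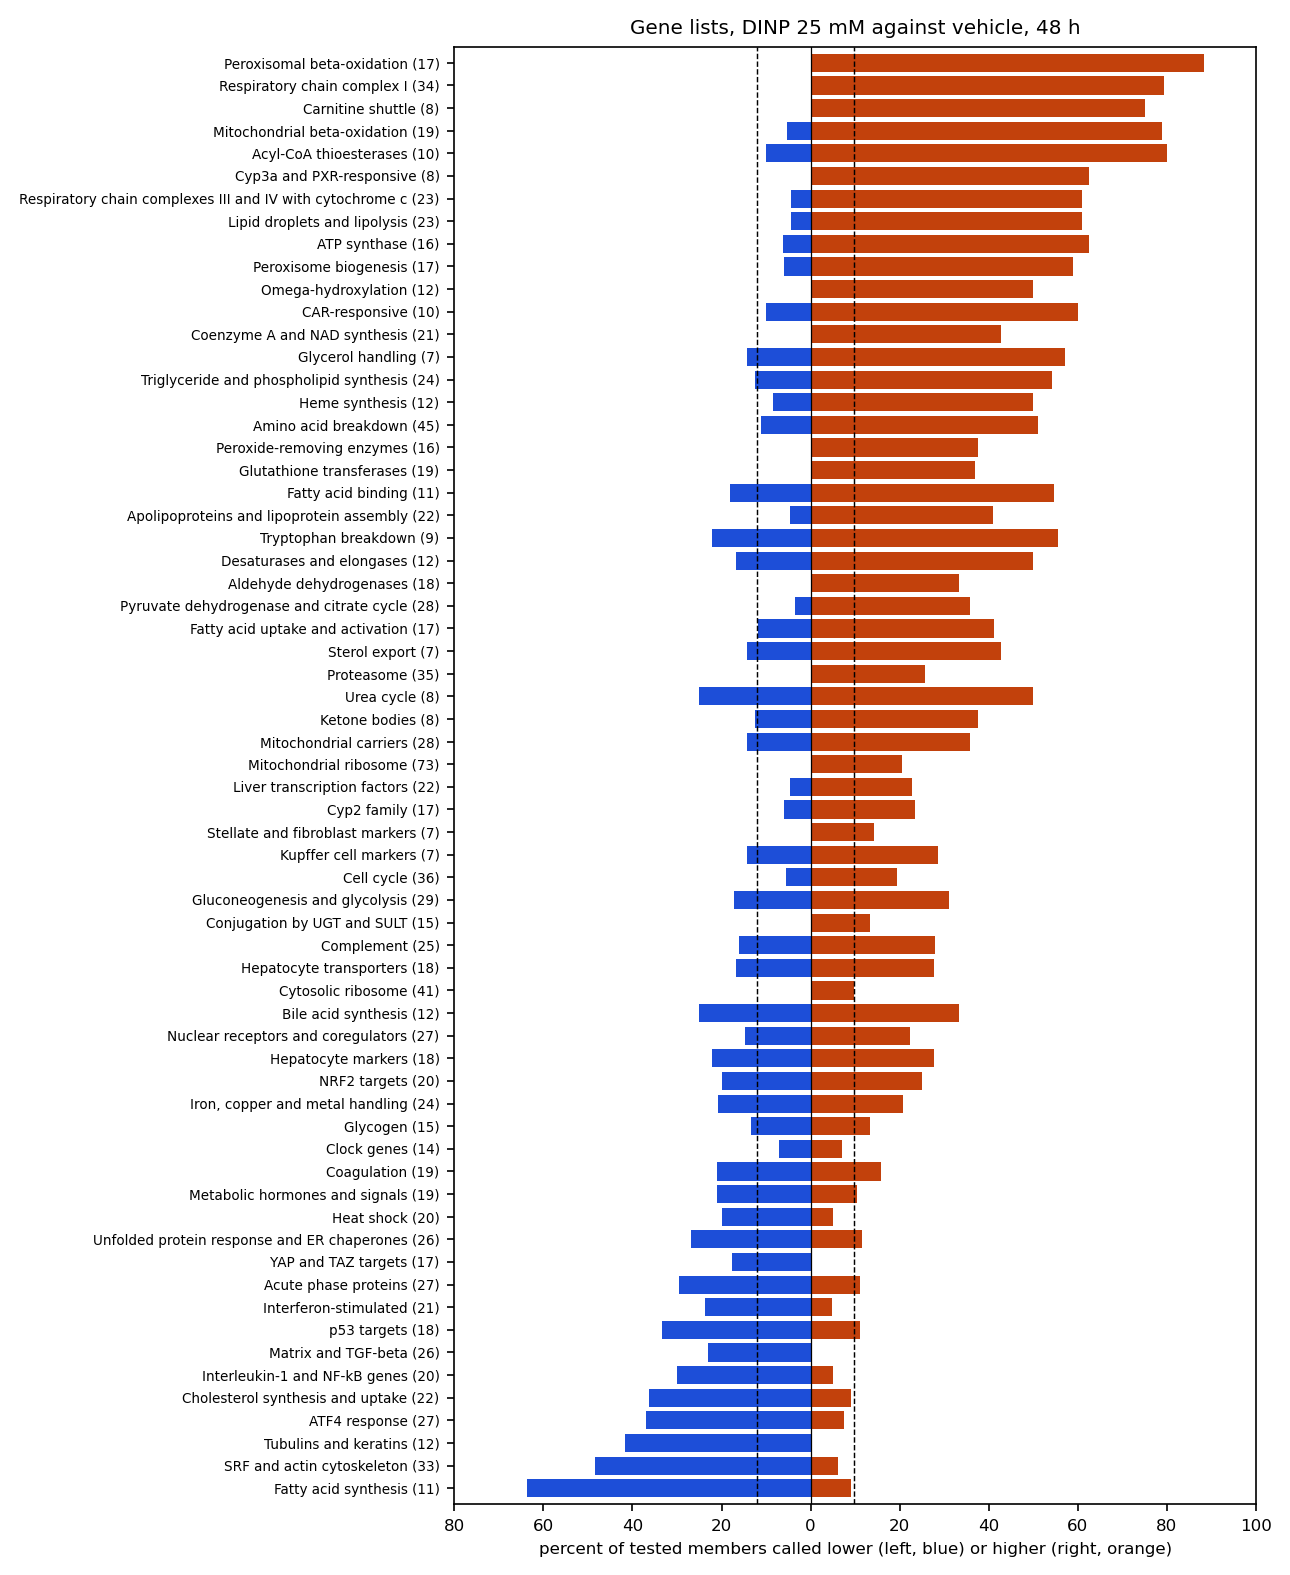
Percent of the tested members of each gene list called higher (orange, to the right) or lower (blue, to the left) with DINP 25 mM at 48 h, for lists with at least 7 tested members, whose number stands in brackets. The dashed lines mark the shares over all tested genes, 9.78% higher and 12.1% lower. Peroxisomal beta-oxidation and complex I stand at the top, and fatty acid synthesis and the actin list at the bottom.

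Transcripts of hepatocytes were bright in both groups. The hepatocyte markers albumin (Alb) and transthyretin (Ttr) were not called (0.15 ± 0.10 and 0.05 ± 0.07), and both lie among the brightest probe sets, where an array resolves differences poorly. Of the 18 tested hepatocyte markers, however, 5 rose, Pck1 among them, and 4 fell, among them Cyp2c11, Tat and Tdo2, with the values given above. The summed signal of the 18 hepatocyte markers was 1071888 to 1261219 in vehicle and 1056160 to 1210652 with DINP. For the other cell types the sums were much lower, but they cover only 3 to 7 tested members each. The defining markers Adgre1 and Cd163 of Kupffer cells and Pdgfrb and Lrat of stellate cells were below the filter on signal. So were Pecam1 and Stab1 of endothelium, Krt7 of bile ducts and Cd3e of lymphocytes. Of Kupffer cell markers 2 of 7 rose, 1 fell, and their sum ran from 28001 to 30872 in vehicle and from 31522 to 36476 with DINP, without overlap. Cd14, a lipopolysaccharide co-receptor that hepatocytes also make, was the one clear rise among them, at 0.42 ± 0.05, and C1qb, which was dim in vehicle, had overlapping arrays. The Kupffer cell marker that fell was Lyz2, at -0.23. Cholangiocyte markers, with Epcam lower by 0.35 ± 0.07, summed to 13573 to 16505 in vehicle and 11057 to 13727 with DINP. Fewer cells of a type and less RNA per cell cannot be told apart in such data, and the part these cells have in the gene results was not tested.

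Array measures were not all alike between the groups. Vehicle replicate 1 stood apart from the other 4 vehicle arrays on 489 tested probe sets (2.63%), against 168 to 321 for the other 9 arrays. The array's control for 5S ribosomal RNA, a small structural RNA of the ribosome, read 736 to 992 in vehicle and 1533 to 2049 with DINP, without overlap (exact permutation test, 2-sided p = 0.00794, the smallest that 5 against 5 allow, adjusted over 7 measures 0.0556). At 24 h it ran from 880 to 1324 in vehicle and from 1582 to 3084 at 25 mM. At 100 mM it ran from 1836 to 2954 at 24 h and from 1056 to 1929 at 48 h. The poly-A spikes, RNAs added before labelling, had a mean of 11.1 ± 0.16 (SD, log2, n = 5) with DINP and 10.9 ± 0.14 in vehicle (exact permutation p = 0.0317, adjusted 0.0741). The 3' minus 5' difference of the Gapdh control probe sets, a sign of RNA quality, was 0.165 ± 0.022 (SD, log2, n = 5) with DINP and 0.186 ± 0.0070 in vehicle, with the same p values by the exact permutation test. For the beta-actin and hexokinase probe sets the p was 0.651 and 0.865 by that test. What these differences contribute to the gene results was not tested. Where a gene called at 2-fold or more had other tested probe sets, 20 of 23 had the same sign, 15 were called the same way and 0 the opposite way. Among smaller called differences, 805 of 940 had the same sign and 2, of Atp5if1 and Cldn1, named after their values were seen, were called the opposite way.

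**Figure D4:**
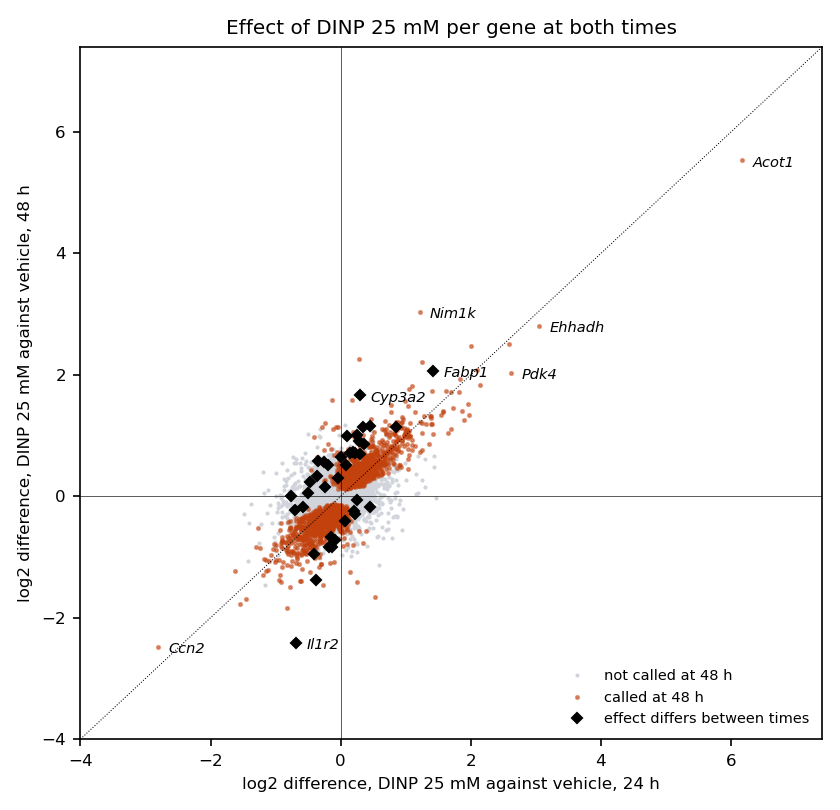
Log2 difference from vehicle at 48 h (vertical) against that at 24 h (horizontal) for each of the 10604 tested genes at 25 mM, with different vehicle arrays at each time. Orange points are genes called at 48 h, black diamonds are genes whose 2 differences were called unequal, and the dotted line marks equal differences. Acot1, Ehhadh and Ccn2 lie near the line, while Il1r2 and Cyp3a2 lie far off it.

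Much of the response at 48 h was also seen at 24 h, in separate cultures with their own vehicle. Of the 1037 genes called higher, 611 were called higher at 24 h (58.9%) and 3 lower, and of the 1286 called lower, 568 were called lower (44.2%) and 1 higher. Read from the other side, these were 73.2% of the 835 genes higher at 24 h and 68.4% of the 831 lower. Of the 138 called genes at 2-fold or more, 105 were called the same way at 24 h. Across all tested genes, which are not independent replicates, the differences at the 2 times had r = 0.64 and rho = 0.56. The difference between times was tested directly. It was called in 38 genes (0.358%), 26 with a higher and 12 with a lower value at 48 h. Centring each array on its median left 6 and 6. With 1 array left out, the first number ran from 20 to 32 and the second from 5, without vehicle 24 h replicate 1 or DINP 24 h replicate 4, to 20, without DINP 24 h replicate 1. At an unadjusted p under 0.05, 8.2% of the probe sets differed. Acot1, Ehhadh and Cyp4a1 were not among them (-0.64 ± 0.49, -0.24 ± 0.14 and -0.08 ± 0.16 for 48 h minus 24 h). Pdk4 was larger at 24 h, 2.63 ± 0.11, without a called difference (adjusted p = 0.139).

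Cyp3a2 had the largest called gain. At 24 h it read 4766, 6209, 7415, 5872 and 5239 in vehicle and 6684, 6908, 8300, 6962 and 7014 at 25 mM, and the difference between the times' effects was 1.37 ± 0.20 (adjusted p = 6.00e-04). Its vehicle arrays were thus lower at 48 than at 24 h, while its DINP arrays covered much the same range at both. Afm, a plasma carrier of vitamin E, read 10722, 10266, 11172, 10777 and 10470 in vehicle at 24 h and 3794, 4350, 4370, 4596 and 4105 at 48 h, against 8567, 7743, 8320, 9965 and 8286 with DINP at 48 h, so its vehicle level was also the lower one at the later time (0.77 ± 0.09 between the effects). In Bdh1 (0.90 ± 0.14) and the bile acid carrier Slc10a1 (0.72 ± 0.14) the vehicle mean was lower at 48 than at 24 h as well. In Gstt3 (0.80 ± 0.14) it was not, and the DINP arrays read 7662, 7104, 6603, 7253 and 5293 at 24 h and 16635, 13931, 16145, 16320 and 13450 at 48 h. Of the 26 genes with a higher value at 48 h, 18 were lower in vehicle at 48 than at 24 h. The difference between times contains this vehicle change, so such genes were the more likely to be chosen, and nothing is read from the count. Fabp1 also gained, from 1.43 ± 0.08 at 24 h to 2.06 ± 0.08 at 48 h (difference 0.64 ± 0.11, adjusted p = 0.0027).

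Il1r2 had the largest called loss. At 24 h it read 4353, 3168, 3723, 4373 and 2733 in vehicle and 1858, 2205, 1930, 2937 and 2463 at 25 mM, and its difference between times was -1.74 ± 0.28 (adjusted p = 0.00112). S100a6 followed at -0.998 ± 0.16. Cryab, a small heat shock protein, read 5256, 5532, 5464, 4827 and 4890 in vehicle at 24 h and 7411, 10835, 10065, 8246 and 9861 at 48 h, against 5199, 6095, 4651, 5120 and 4869 with DINP at 48 h, so that its vehicle arrays were higher at the later time and the DINP arrays were not (-0.70 ± 0.13). Of the 12 genes with a lower value at 48 h, 9 were higher in vehicle at 48 than at 24 h, a count set in part by the same choice. The other 3 were Il1r2, S100a6 and A2m, whose vehicle means were lower at 48 than at 24 h. A2m, Gpnmb, Ildr2, Neurl3 and Thrsp were among the 12, at -0.63, -0.65, -0.55, -0.62 and -0.52.

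**Figure D5:**
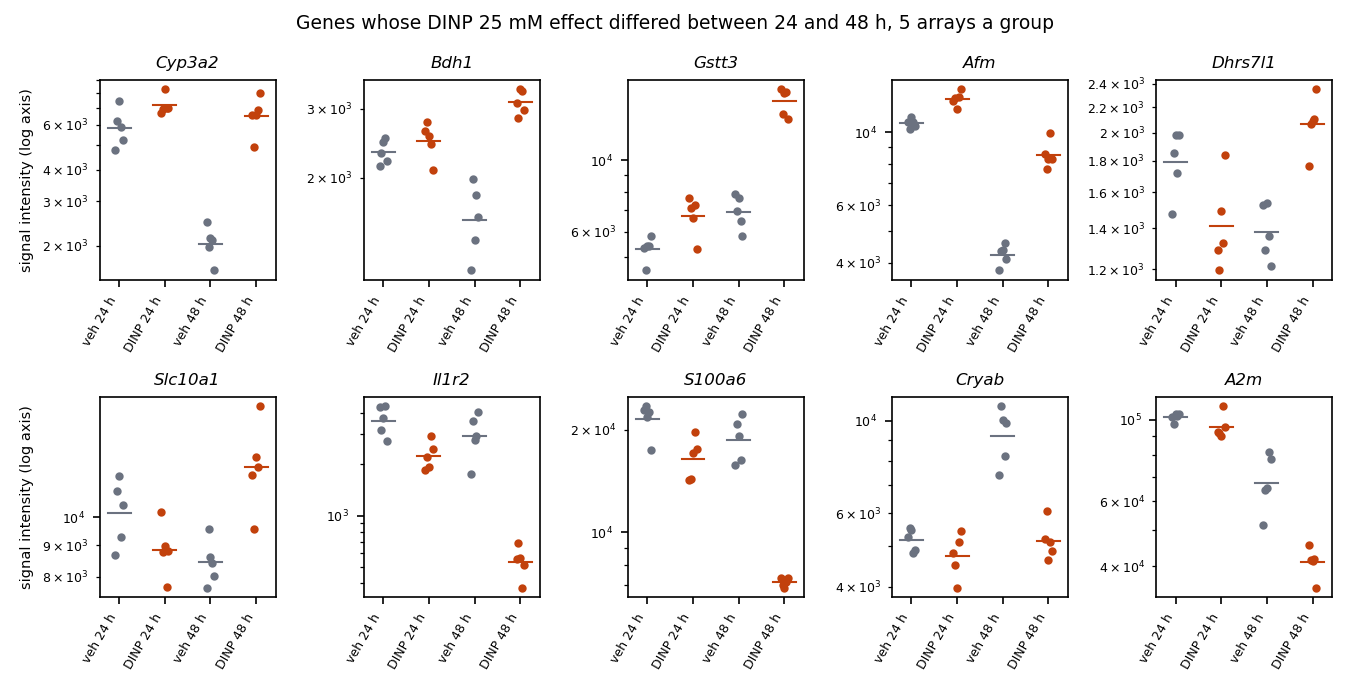
Signal intensity per array, on a log axis that differs between panels, for 10 genes whose DINP 25 mM effect differed between 24 and 48 h. Grey is vehicle (veh), orange DINP 25 mM, with 5 arrays a group and a bar at the geometric mean. Cyp3a2, Bdh1 and Afm show low vehicle points at 48 h, Cryab shows high ones, and Il1r2 and S100a6 show low DINP points at 48 h.

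Between 25 and 100 mM at 48 h hardly any gene was told apart. The difference between 100 and 25 mM was called in 1 gene (0.00943%), Fam3c, a secreted signalling protein, and 7.53% of the probe sets had an unadjusted p under 0.05. Fam3c read 6803, 6190, 6175, 6527 and 6850 in vehicle, 3761, 3728, 3977, 3101 and 3680 at 25 mM and 5655, 4523, 5135, 5284 and 5470 at 100 mM. It fell by 0.84 ± 0.08 at 25 mM and by 0.32 ± 0.08 at 100 mM, a difference of 0.51 ± 0.08 (adjusted p = 0.016). Without a variance trend, or with a fit of the compared groups alone, 0 genes were called, and so it was without any one of replicates 1, 3, 4 and 5 of the 100 mM group. For the leading genes, the 100 minus 25 mM difference was -0.16 ± 0.10 in Ehhadh, -0.12 ± 0.11 in Cyp4a1, -0.12 ± 0.09 in Acsl1, 0.28 ± 0.10 in Ccn2 and -0.32 ± 0.14 in Cyp3a2. The standard errors leave room for modest differences in either direction. Of the 138 called genes at 2-fold or more, 113 were called the same way at 100 mM, in a comparison that shares the vehicle arrays.

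Of the 4119 tested probe sets without a gene name here, 452 were called, 14 of them at least 2-fold higher and 17 at least 2-fold lower. Over all 18625 tested probe sets the share called was larger, 3333 or 17.9%.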

How the data were processed

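The labels' protocols give the cells, doses and times, and biotin-labelled cRNA on Affymetrix rat arrays. The deposited values are signal intensities per probe set, which the submitters' processing notes assign to the MAS5 software without a version. The 2% trimmed mean of each array lay between 1500.65 and 1500.76, so the authors had brought the arrays to a common mean. No detection calls were used. From the 31099 deposited probe sets, 57 controls were dropped and log2(signal + 16) was computed. Probe sets at or above the 40th percentile of mean signal entered limma (version 3.58.1, R 4.3.3) as 1 model of all 6 groups (24 residual degrees of freedom), with empirical Bayes moderation on a mean trend and Benjamini-Hochberg adjustment at 0.05. A difference on this scale understates the change of dim genes. The number of arrays, 5 a group, limits the precision.

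A gene is its brightest tested probe set (2730 genes had more than 1). Symbols follow the array's annotation, some of it old: 20826 probe sets had 1 symbol, 436 several and 9780 none here, and 20758 were updated through Entrez IDs in a gene table of assembly GRCr8. The test was checked on simulated data.

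The 69 lists hold 1532 distinct genes, of which 1216 were tested, 120 lay below the filter and 196 were unmatched. They are described by counts and medians beside those of all genes, with no test of a list. The lists, members and tests were chosen with earlier results of these data known. Named genes are the 15 largest called rises and 15 largest called falls with arrays that do not overlap, up to 4 called members of a list in each direction, up to 8 called genes in each direction for the time and dose differences, and genes picked for this compound class. Replicate numbers follow the order of the samples. Alternatives were other constants (1 and 64), filters (none and the 60th percentile), quantile normalisation, median centring, no variance trend, array weights, a block for the 5 rounds of array numbers, only the compared groups, each replicate left out, and a gene's median probe set for the lists.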

Additional observations from a re-analysis of the deposited data

Results flagged for a closer look

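Dixon's test at 95% was run on 46 genes given array by array, or 92 groups of 5 arrays at 48 h. It set 1 array apart in 5 of the groups, and at this level about 1 in 20 is set apart by chance. Vehicle replicate 1 was the array in 3 of these 5 groups: it read 3256 for Fgf21, 26683 for Cyp1a1 and 604 for Pfkfb3. The rate of 1 in 20 does not say how the flags fall on arrays, and why 3 fell on this one was not tested. Vehicle replicate 2 read 239 for Fabp3, and DINP replicate 5 read 18594 for Fn1. Without vehicle replicate 1 the comparison gave 1061 genes higher and 1307 lower.

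The effect of 25 mM differed between the times, by limma's test of the difference, in 17 of the genes named. It was higher at 48 h (log2 difference of the effects) for Cyp3a2 (1.37), Bdh1 (0.90), Slco1b2 (0.83), Gstt3 (0.80), Afm (0.77), Slc10a1 (0.72), Fabp1 (0.64) and Hgd (0.63). It was lower for Il1r2 (-1.74), S100a6 (-0.998), Cryab (-0.70), Gpnmb (-0.65), A2m (-0.63), Neurl3 (-0.62), Ildr2 (-0.55), Thrsp (-0.52) and Nupr1 (-0.52).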

How the results depend on the processing

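The counts for 25 mM against vehicle at 48 h stayed within 1.5 times of the reported ones under every alternative run. With 1 array left out, 899 to 1061 genes were higher and 1080 to 1331 lower (probe sets: 1177 to 1394 and 1611 to 2073). The smaller contrasts depended on the settings, and the cause was not tested. For 48 h minus 24 h, 26 genes higher became 6 with median centring (6 probe sets). The 12 lower became 6 with median centring, 6 without a filter, 6 with only the compared groups, 7 without a variance trend and 21 with the filter at the 60th percentile (probe sets: 7, 8, 8, 8 and 25). With 1 array left out, 20 to 32 genes were higher and 5 to 20 lower (probe sets: 22 to 39 and 7 to 24). For 100 minus 25 mM, the 1 gene higher became 0 without a variance trend or with only the compared groups and 2 with the round of array numbers as a block (the same numbers for probe sets), and 0 to 3 genes (0 to 4 probe sets) were higher and 0 to 0 lower with 1 array left out. The titles number the arrays in 5 rounds of the 6 groups, but do not say that a round shares animals, plates or a day. With that round as a block, 1046 genes were higher and 1317 lower with DINP at 48 h, and 23 higher and 9 lower for 48 h minus 24 h.

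Of 159 called genes named, 144 kept their call under each of the 20 alternatives that tested them, and none reversed. The others were Acadsb, Aqp9, Atp5if1, C1qb, Cat, Ccn1, Ccnd1, Cyp7a1, Fasn, Mcm10, Mid2, Onecut1, Oxct1, Pmepa1 and Sipa1l1. A gene that an alternative's filter on signal left out has no result there and was not counted as lost. Cd36 became called under 6 alternatives and Cyp1a1 under 1, without vehicle replicate 1. Signals of dim genes rest on few units above background, which limits the size of their folds.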
